A study of Mus musculus with 24 samples.

Results

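Microglia, the resident macrophages of the brain, were compared between 4 mice heterozygous for a C9orf72 knockout and 4 wild-type mice, all 3 months old. These 8 libraries belong to a bulk RNA-seq series of 24, which also holds 4 homozygous knockouts of 3 months and the same 3 genotypes at 17 months. The 8 were chosen by genotype and age as labelled, and no measured value entered the choice. The comparison asks how microglial transcripts differ when 1 of 2 gene copies is lost. All animals are labelled C57BL/6J, and how the knockout allele was made is not given in the sources used here. After the meninges were taken off, papain was used to free the cells of the brain, beads removed myelin, and cells carrying CD11b were pulled down magnetically. CD11b is shared by microglia with border macrophages, monocytes and neutrophils, so the pull-down does not separate these cells. In bulk RNA, fewer cells of a type and less RNA per cell cannot be told apart. Each library is headed by its own animal number in the tables.

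C9orf72, listed in the tables under its older mouse symbol 3110043O21Rik, encodes a protein that works in a complex with SMCR8 and WDR41 at the lysosome and in autophagy. The gene is best known for a repeat expansion found in amyotrophic lateral sclerosis and frontotemporal dementia. In mice, macrophages and microglia need the gene for normal lysosomes and for restraint of immune signalling.

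The 8 libraries held between 21.8 and 28.9 M alignments. The means were 24.9 ± 2.71 M in wild types and 27.9 ± 1.28 M in heterozygotes (SD, n = 4 each, exact two-sided permutation test, p = 0.0857). Total RNA input, by the labels, ran from 67.7 to 790 ng in wild types and from 30.75 to 163 ng in heterozygotes. These inputs could not be tied to single animal numbers, and their part in the differences below was not tested. Sex was not balanced, because Y-linked transcripts read 4 of 4 heterozygotes and 1 of 4 wild types, WT-8326, as male. The defining microglial markers were abundant in every library, with a summed level of 10 markers between 27482 and 33210 TPM. TPM is the share of a gene's transcripts per M transcripts, corrected for gene length. A log2 difference below is the mean of log2(TPM + 1) in heterozygotes minus that in wild types. A gene is said to have risen or fallen only where limma's test, adjusted by Benjamini-Hochberg over 11587 genes, gave a p under 0.05. The median log2 difference over all 11587 genes was -0.09, and it was 0.02 after each library was centred on its own median. Genes with an unadjusted p under 0.05 numbered 272 higher (2.35%) and 2229 lower (19.2%) in heterozygotes as deposited, and 960 higher (8.29%) and 572 lower (4.94%) after centring. List medians below are therefore given as deposited and, in parentheses, after centring. The median 95% interval of a log2 difference reached 0.39 to either side for genes at 1 to 5 TPM and 0.16 for genes at 100 TPM or more. Values of single animals are listed in the order WT-8322, WT-8323, WT-8325 and WT-8326 for wild types, and HET-8302, HET-8303, HET-8304 and HET-8309 for heterozygotes.

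Of 11587 genes, 5 passed the test (0.0432%), 1 of them higher in heterozygotes (0.00863%) and 4 lower (0.0345%). The 4 that fell were the targeted gene, the methionyl-tRNA synthetase gene Mars, and Fbxo21 and Zfp873, which were listed at or near 0 in heterozygotes. Gm20594 rose. The targeted gene and Mars were also lower in the authors' second table, which gives RPKM (reads per kilobase and M alignments). Fbxo21 and Zfp873 were at like RPKM values in both genotypes, and Gm20594 was under 1 RPKM in all 8 libraries. The count of calls was sensitive to single animals, at 3 without WT-8322 and 467 if HET-8309 was left out.

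3110043O21Rik lies on chromosome 4 at 35191285 to 35226153 (GRCm38.p6). It stood at 23.5, 21.9, 20.4 and 25.6 TPM in wild types and at 9.54, 10.6, 7.37 and 11.4 TPM in heterozygotes. The groups were far apart, and the 4 homozygotes lay lower still, from 0.0491 to 0.265 TPM. The heterozygous mean was 9.73 ± 1.75 TPM against 22.8 ± 2.23 in wild types, or 42.6% (SD, n = 4 each, exact two-sided permutation test, p = 0.0286, the smallest that 70 assignments allow). The log2 difference was -1.16 (SE 0.127, adjusted p = 0.00278). In RPKM the share was 44.3%, at 4.60 ± 0.752 against 10.4 ± 0.627. The call held in 18 of the 21 settings tried and was lost with a pseudocount of 0.1 and in the RPKM table. The remaining setting, males only, holds 1 wild type and cannot decide a call. The animals of 17 months, which are other mice, gave a log2 difference of -0.97 (adjusted p = 0.0206).

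The partners of the encoded protein did not pass the test. Smcr8, whose product stabilises C9orf72, stood at 26.6, 28.9, 26.0 and 31.7 TPM in wild types and at 23.5, 29.8, 15.9 and 21.9 in heterozygotes. The groups overlapped, with HET-8304 lowest, and the log2 difference of -0.33 (adjusted p = 0.207) was -0.18 without HET-8304. Wdr41, the part that brings the complex to lysosomes, stood at 38.4, 36.2, 33.4 and 35.0 TPM in wild types and at 31.4, 34.3, 25.2 and 32.4 in heterozygotes. These groups overlapped too (log2 difference -0.21, adjusted p = 0.239, and -0.12 without HET-8304). Ulk1, the kinase that starts autophagy and a partner of the complex, stood at 29.4, 31.2, 26.4 and 28.8 TPM in wild types and at 21.5, 21.9, 16.0 and 21.7 in heterozygotes. All 4 heterozygotes lay below all 4 wild types, and the test was narrowly missed (log2 difference -0.50, SE 0.099, adjusted p = 0.0572). Over 12 tested genes of the complex, the small GTPases and the autophagy factors linked to it, 0 were higher and 3 lower at an unadjusted p under 0.05, with a median of -0.04. The 3 lower genes include the targeted gene, and 19.2% of all genes were lower. After centring 3 were higher (8.29% of all genes) and 2 lower (4.94%), with a median of 0.07.

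**Figure D1:**
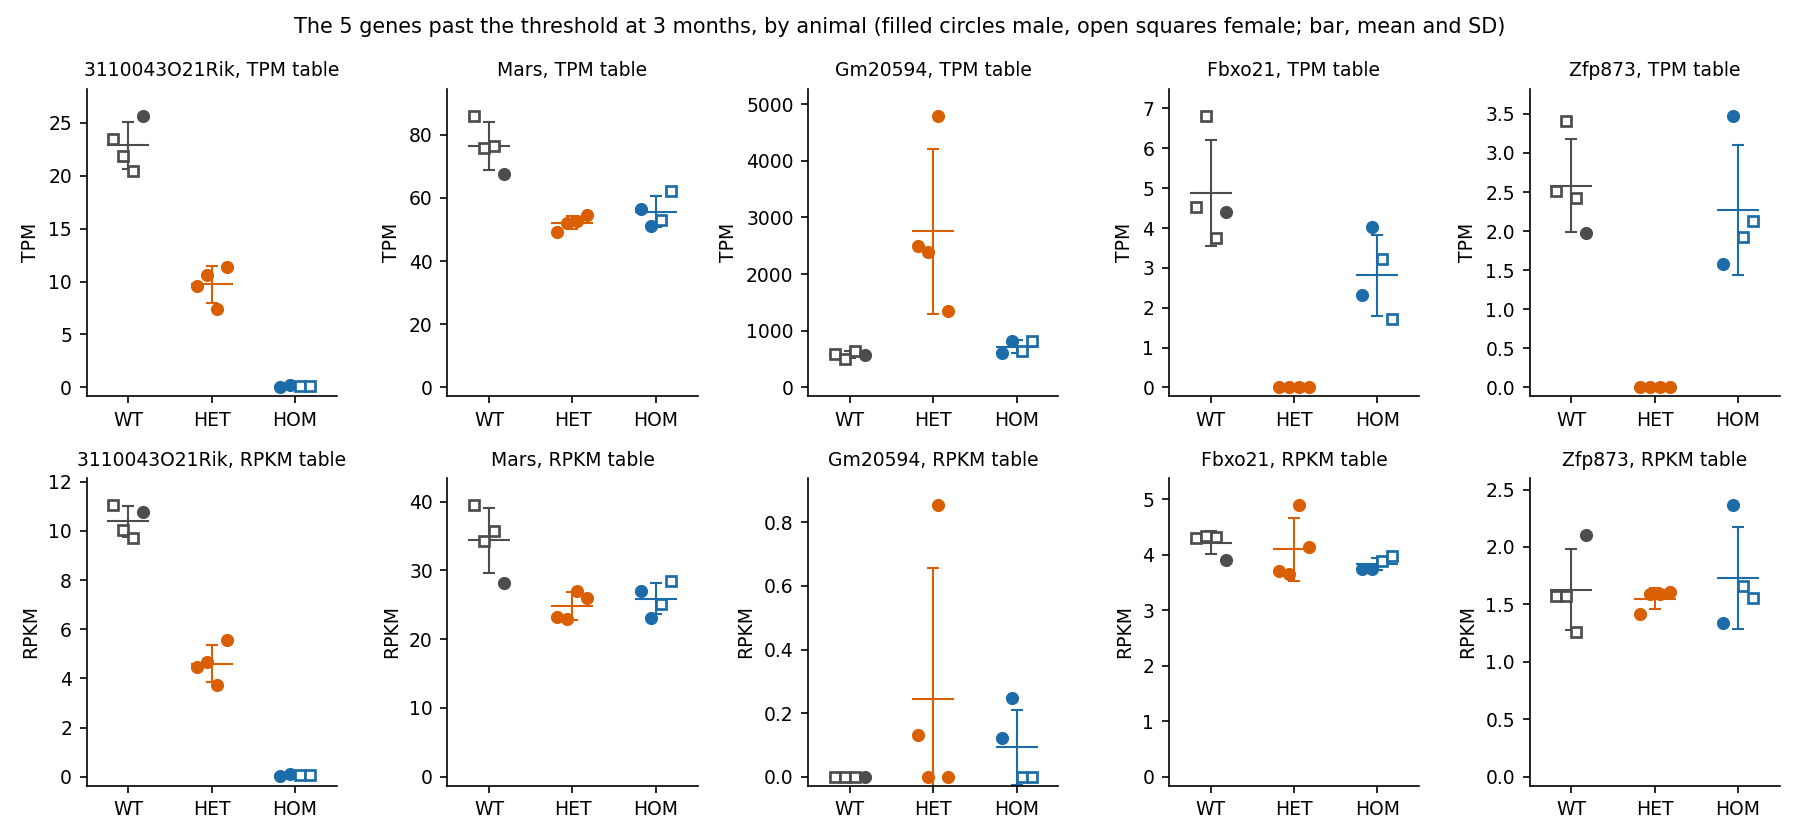
Levels of the 5 genes that passed the test, in TPM (upper row) and RPKM (lower row), for each animal of 3 months by genotype, with bars for the mean and SD over 4 animals. 3110043O21Rik and Mars are lower in heterozygotes in both units, whereas Fbxo21, Zfp873 and Gm20594 differ in TPM alone.

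Aminoacyl-tRNA synthetases attach each amino acid to its tRNA. Together with genes that make and import amino acids, many of them are switched on by the transcription factor ATF4 when amino acids run short. ATF4 binds, with a C/EBP partner, a composite element, and a common form of it was searched here as TGATGNAA (N is any base), on both strands, so that its reverse complement reads TTNCATCA. The windows were 250 bases before to 50 bases after each start site in RefSeq (GRCm38.p6). A gene with several start sites counted once, as carrying the element if any of its windows did. The element was found for 5 of the 16 cytosolic synthetase genes that could be matched to a window (31.25%). It was found for 3 of 20 genes of the ATF4 list (15%) and 0 of 15 mitochondrial synthetase genes. Of all tested genes with a window, 260 of 9425 had it (2.76%). Counted by window rather than by gene, it was in 1304 of all 32851 windows (3.97%). The sequences below are shown because they carry, or in the case of Mars lack, this element beside the genes whose levels are given next. The 150 bases before the start are given for Mars (chr10:127311787-127311936, minus strand), Aars (chr8:111033692-111033841, plus), Gars (chr6:55037851-55038000, plus), Tars (chr15:11399659-11399808, minus) and Asns (chr6:7693210-7693359, minus). Aars has a second match that begins at base 10 after the start and is not printed. For Iars (chr13:49682126-49682155, plus) and Yars (chr4:129189895-129189924, plus), whose match lies just after the start, 30 bases around it are given. All read 5′ to 3′ on the gene's strand, and capitals mark the match.
Mars: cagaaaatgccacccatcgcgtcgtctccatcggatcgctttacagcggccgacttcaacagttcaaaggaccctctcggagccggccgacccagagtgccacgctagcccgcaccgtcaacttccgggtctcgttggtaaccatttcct
Aars: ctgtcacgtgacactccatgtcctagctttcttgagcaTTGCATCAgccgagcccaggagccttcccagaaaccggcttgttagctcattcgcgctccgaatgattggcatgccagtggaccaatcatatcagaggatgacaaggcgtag
Gars: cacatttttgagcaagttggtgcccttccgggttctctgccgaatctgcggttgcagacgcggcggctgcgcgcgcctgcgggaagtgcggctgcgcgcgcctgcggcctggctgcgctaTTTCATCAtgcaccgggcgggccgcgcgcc
Tars: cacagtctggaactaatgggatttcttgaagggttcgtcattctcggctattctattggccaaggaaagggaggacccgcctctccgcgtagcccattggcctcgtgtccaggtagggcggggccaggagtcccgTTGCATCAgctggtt
Asns: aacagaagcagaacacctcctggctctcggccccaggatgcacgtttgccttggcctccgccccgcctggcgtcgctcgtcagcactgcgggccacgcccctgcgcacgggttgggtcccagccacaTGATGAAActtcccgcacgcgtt
Iars: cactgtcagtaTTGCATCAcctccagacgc
Yars: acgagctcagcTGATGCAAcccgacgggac
A match describes the letters only. Mars, the synthetase gene that fell, has no match in its window, whereas Iars and Yars do.

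The cytosolic synthetases were lower in heterozygotes as a group. Of 23 tested genes, 23 had a negative log2 difference and 15 (65.2%) were lower at an unadjusted p under 0.05, where 19.2% of all genes were, and 0 were higher. Their median log2 difference was -0.21 against -0.09 for all genes. After centring it was -0.10 against 0.02, with 6 lower (4.94% of all genes) and 0 higher (8.29%). The 4 heterozygotes lay below all 4 wild types in 10 of the 23, where 9.99% of all genes did so. Summed over the list, the level ran from 1190 to 1312 TPM in wild types and from 1047 to 1112 in heterozygotes, without overlap, and from 1070 to 1175 in homozygotes, which share these wild-type controls. In the RPKM table the median was -0.12 against -0.01 for all genes, with 10 lower (8.23% of all genes there) and 0 higher (5.28%).

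Mars, which charges methionine and lies on chromosome 10 at 127296221 to 127311786, stood at 85.9, 75.7, 76.4 and 67.5 TPM in wild types and at 49.4, 52.1, 52.6 and 54.6 in heterozygotes. The heterozygotes lay close together, all below the lowest wild type. Mars fell by 0.54 on the log2 scale (SE 0.079, 95% interval -0.71 to -0.37, adjusted p = 0.0362), with means of 76.4 ± 7.52 and 52.2 ± 2.16 TPM. This call held in 7 of 21 settings. After centring the difference was -0.43 (adjusted p = 0.121), and with a term for sex it was -0.43 (adjusted p = 0.397). WT-8326, the male wild type, had the lowest wild-type level of Mars, Iars, Yars and Cars. Homozygotes, which share the controls, stood at 55.7 TPM on average.

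Iars, for isoleucine, stood at 46.3, 46.7, 43.4 and 37.9 TPM in wild types and at 28.0, 33.1, 24.5 and 29.3 in heterozygotes. The groups were apart, yet the test was narrowly missed (log2 difference -0.59, SE 0.096, adjusted p = 0.0517). Yars, for tyrosine, stood at 62.7, 57.4, 58.1 and 46.1 TPM in wild types and at 36.2, 39.6, 39.3 and 43.7 in heterozygotes (log2 difference -0.48, adjusted p = 0.0554). Here WT-8326 and HET-8309 came closest, without overlap. Nars, for asparagine, had the highest level in the list, at 184 ± 9.54 TPM in wild types and 161 ± 8.72 in heterozygotes (log2 difference -0.19, adjusted p = 0.106). The next 4 members were chosen after their values were seen, for the element above or for their change with age. Cars, for cysteine, had means of 43.5 ± 5.49 and 29.9 ± 5.01 TPM (log2 difference -0.53, adjusted p = 0.0572). Aars, Gars and Tars, for alanine, glycine and threonine, had log2 differences of -0.27, -0.26 and -0.27. With a term for sex the list's median was -0.15 against -0.10 for all genes, with 8 lower (10.5% of all genes in that fit) and 0 higher (1.39%).

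**Figure D2:**
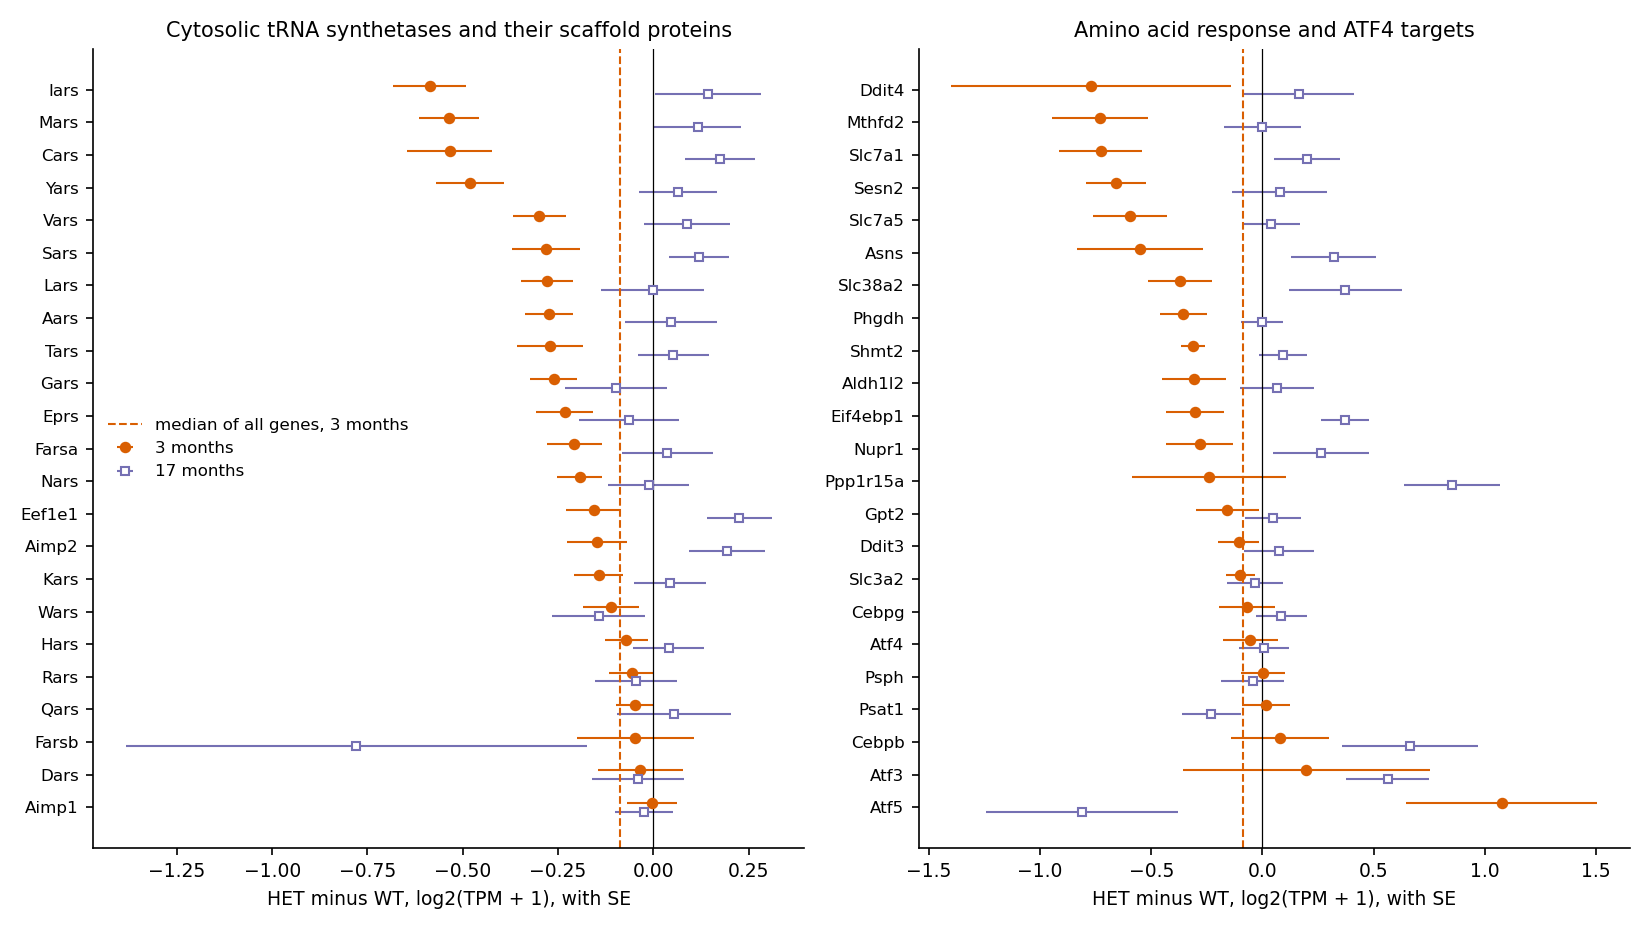
Log2 difference, heterozygote minus wild type, with its SE, for cytosolic synthetases and scaffold proteins (left) and for the amino acid response list (right), at 3 months (filled circles) and 17 months (open squares), with the 3-month median of all genes as a dashed line. At 3 months all 23 points on the left lie below 0, led by Iars, Mars, Cars and Yars, and at 17 months their median is 0.04.

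The 17 tested mitochondrial synthetases had a median of -0.09 (0.02 centred), near that of all genes. At an unadjusted p under 0.05, 1 was higher (2.35% of all genes) and 3 were lower (19.2%). The member that was higher was Lars2, for mitochondrial leucine, and the size of its difference was not the same in the 2 tables. In TPM it stood at 19.5, 17.1, 19.7 and 14.7 in wild types and at 27.5, 23.1, 27.2 and 19.9 in heterozygotes (log2 difference 0.44, adjusted p = 0.158). In RPKM it stood at 82.8, 39.1, 71.6 and 37.4 in wild types and at 165, 109, 197 and 104 in heterozygotes, a log2 difference of 1.35. The heterozygotes were higher without overlap in both tables.

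The median of the amino acid response list was lower as deposited, and near the background once sex was in the fit. Its summed level stood at 2083, 1985, 2049 and 2040 TPM in wild types and at 2117, 2252, 1412 and 2084 in heterozygotes. By this sum HET-8304 alone lay below the wild types, and the other heterozygotes lay above all of them. Of 23 tested ATF4 targets and related genes, 18 had a negative difference, and the median was -0.28 (-0.17 centred). At an unadjusted p under 0.05, 8 were lower (19.2% of all genes) and 1 higher (2.35%). After centring 5 were lower (4.94% of all genes) and 1 higher (8.29%). Without WT-8322 the median was -0.17. With a term for sex it was -0.12 against -0.10 for all genes, with 3 lower, where 10.5% of all genes were, and 0 higher. Sesn2, a sensor of leucine that holds back mTORC1, stood at 14.8, 14.5, 13.6 and 11.4 TPM in wild types and at 6.74, 7.51, 9.0 and 9.93 in heterozygotes. The groups did not overlap (log2 difference -0.66, adjusted p = 0.0572). Shmt2, a mitochondrial enzyme of serine and one-carbon metabolism, stood at 39.8, 39.3, 36.7 and 36.7 TPM in wild types and at 28.9, 30.8, 30.8 and 31.6 in heterozygotes. These groups were tight and apart (log2 difference -0.31, SE 0.054, adjusted p = 0.0517). Slc7a1, an importer of arginine and lysine, stood at 11.8, 8.90, 12 and 6.47 TPM against 4.85, 3.90, 7.15 and 6.02, with WT-8326 inside the heterozygous range (log2 difference -0.73, adjusted p = 0.0751).

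Aldh18a1, which makes a precursor of proline, was outside that list and was named by its rank. It stood at 25.5, 21.3, 23.1 and 19.7 TPM in wild types and at 13.3, 15.1, 14.5 and 16.7 in heterozygotes, without overlap (log2 difference -0.56, adjusted p = 0.0517). The next 4 genes were chosen after their values were seen. Mthfd2, a mitochondrial one-carbon enzyme, stood at 40.5, 20.1, 24.7 and 19.6 TPM in wild types and at 12, 13.1, 13.7 and 21.7 in heterozygotes, where HET-8309 overlapped the wild types. Asns, which makes asparagine and is a textbook ATF4 target, stood at 7.74, 3.26, 3.29 and 1.52 TPM against 1.78, 1.73, 2.41 and 2.39. Its male wild type was the lowest of all 8. The log2 difference of -0.55 (adjusted p = 0.280) was 0.28 in males only, a fit that holds 1 wild type. Atf4 itself had a log2 difference of -0.05 (0.06 centred), at 347 ± 22.1 and 338 ± 64.2 TPM. Atf5, a related factor, was the member that was higher in TPM (1.08), from 2.56 ± 1.97 to 5.37 ± 1.15 TPM, with 1 wild type listed at 0. In RPKM the difference of Atf5 was 0.04.

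Fbxo21, for an F-box subunit of a ubiquitin ligase, stood at 4.51, 6.81, 3.76 and 4.41 TPM in wild types. In heterozygotes it was listed at 0, 1.66e-07, 0 and 0 TPM, and homozygotes lay from 1.71 to 4.03. The same libraries gave 4.30, 4.34, 4.31 and 3.91 RPKM in wild types and 3.70, 3.65, 4.89 and 4.14 in heterozygotes. The RPKM groups overlapped, with a log2 difference of -0.05 where the log2(TPM + 1) scale gave -2.53 (SE 0.197, adjusted p = 1.89e-04). Zfp873, for a zinc finger protein, stood at 2.52, 3.40, 2.42 and 1.98 TPM in wild types and was listed at 0, 0, 8.28e-09 and 2.98e-04 TPM in heterozygotes. Its RPKM were 1.57, 1.58, 1.26 and 2.11 in wild types and 1.42, 1.59, 1.59 and 1.61 in heterozygotes, again a difference of -0.05 where the log2(TPM + 1) scale gave -1.83 (adjusted p = 0.00115). Among all genes of the TPM table, these 2 were the only ones under 0.01 TPM in every animal of 1 genotype and at 1 TPM or more in all other animals of that age, and at 17 months no genotype had such a gene. At 17 months Fbxo21 was listed at 9.12e-08, 0, 3.82e-09 and 1.71 TPM in wild types and reached 6.68 TPM in HET-7796. What sets the TPM apart from the RPKM of these genes was not tested.

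Gm20594 is a short gene on chromosome 6 at 79818031 to 79818364. It stood at 596, 497, 651 and 567 TPM in wild types and at 2490, 2389, 4788 and 1351 in heterozygotes, and homozygotes stood at 722 on average. Every heterozygote lay above every wild type, with HET-8304 highest and HET-8309 lowest. Gm20594 rose by a log2 of 2.11 (SE 0.279, adjusted p = 0.0159), a call that held in 10 of 20 settings. With a term for sex the adjusted p was 0.277, and without HET-8304 it was 0.00198 with a difference of 1.80. In RPKM it was listed at 0 in all 4 wild types, HET-8303 and HET-8309, at 0.130 in HET-8302 and at 0.853 in HET-8304.

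**Figure D3:**
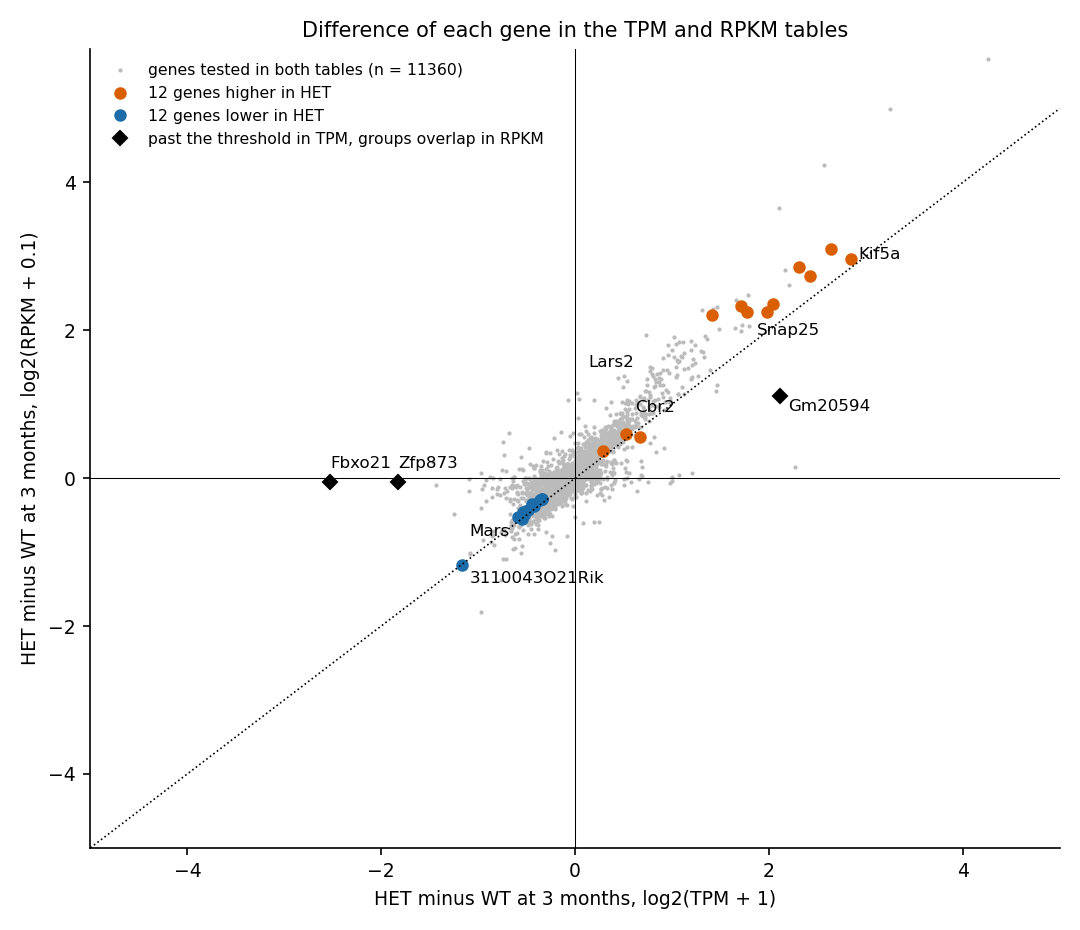
Log2 difference of each of 11360 genes tested in both tables, in TPM (horizontal) and RPKM (vertical), with the line of equal differences dotted, and with the 12 higher and 12 lower genes that lead both tables in colour. Most coloured points lie near the line, while Fbxo21 and Zfp873 sit near 0 in RPKM.

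The genes with an unadjusted p under 0.05 and no overlap of the groups in both tables numbered 337 lower (2.97%) and 101 higher (0.889%) of 11360. The 12 with the smallest p in each direction were named. Besides the targeted gene, Mars, Iars and Aldh18a1, the lower ones missed the test with an adjusted p of 0.0517. Rhbdd1, an intramembrane protease, stood at 25.3, 25, 26.4 and 23.2 TPM in wild types and at 17.5, 19.1, 15.1 and 18.6 in heterozygotes (log2 difference -0.49). Gbgt1, a glycolipid enzyme, stood at 59.3, 65.7, 57.3 and 62.5 TPM against 45.8, 46.8, 43.7 and 42.1 (-0.45). In both genes all heterozygotes lay below all wild types. Rest, the repressor of neuronal genes in other cells, stood at 9.29, 8.85, 7.44 and 9.30 TPM against 5.92, 6.34, 5.23 and 5.07 (-0.55), without overlap. The log2 differences were -0.53 for Nos1ap, an adaptor of nitric oxide synthase, -0.42 for Tmem201, a protein of the inner nuclear membrane, and -0.36 for Rexo4, an exonuclease. They were -0.34 for Orai2, a calcium channel subunit, and -0.34 for E2f4, a cell cycle repressor.

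Of the 12 higher genes, 9 are best known from neurons, and none passed the test with all 4 heterozygotes. Kif5a, a motor of axonal transport, stood at 31, 23, 34 and 21.5 TPM in wild types and at 177, 198, 661 and 67.5 in heterozygotes. Homozygotes stood at 29.2, 21.9, 25.3 and 43.0 TPM. Every heterozygote lay above every wild type, HET-8304 highest and HET-8309 lowest, the same end positions as for Gm20594. The log2 difference was 2.84 (SE 0.501, adjusted p = 0.0522), and 2.27 without HET-8304 (adjusted p = 0.0259). Snap25, from the neuron markers and needed for synaptic vesicle fusion, stood at 2.23, 1.41, 1.38 and 0 TPM in wild types and at 6.08, 3.29, 15.9 and 4.19 in heterozygotes (log2 difference 1.79, adjusted p = 0.0683). The groups were apart, with HET-8304 highest. The motors Kif5c and Kif1a had differences of 2.64 and 2.05, and Nrsn1, a vesicle protein of neurites, one of 2.31. The exchange factor Rapgef4 stood at 2.42, the elongation factor Eef1a2 at 1.78, and the secretory protein Pcsk1n at 1.98. Stmn3, which binds tubulin, and Rph3a, on synaptic vesicles, stood at 1.41 and 1.71.

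HET-8304 stood apart from the other heterozygotes in markers of several other brain cells. The summed level of 13 neuron markers was 17.6, 14.9, 17.6 and 12.5 TPM in wild types and 24.9, 21.3, 135 and 26.7 in heterozygotes. The other 3 heterozygotes thus still lay above all wild types. The median of the 8 tested neuron markers was 0.85 (0.96 centred). At an unadjusted p under 0.05, 5 were higher (2.35% of all genes) and 0 lower (19.2%). Without HET-8304 the median was 0.37, with 4 higher (2.1% of all genes in that fit). No neuron marker was at 0 in all 8 libraries. Summed choroid plexus and ependymal markers reached 4159 TPM in HET-8304, against 335 to 1031 in the other heterozygotes and 708 to 1186 in wild types. Leaving HET-8304 out raised the number of calls from 5 to 22 (0.19%), of which 16 were higher (0.138%) and 6 lower (0.0518%). Those 22 held 8 of the neuronal genes named above: Kif5a, Kif5c, Kif1a, Nrsn1, Rapgef4, Eef1a2, Pcsk1n and Rph3a.

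**Figure D4:**
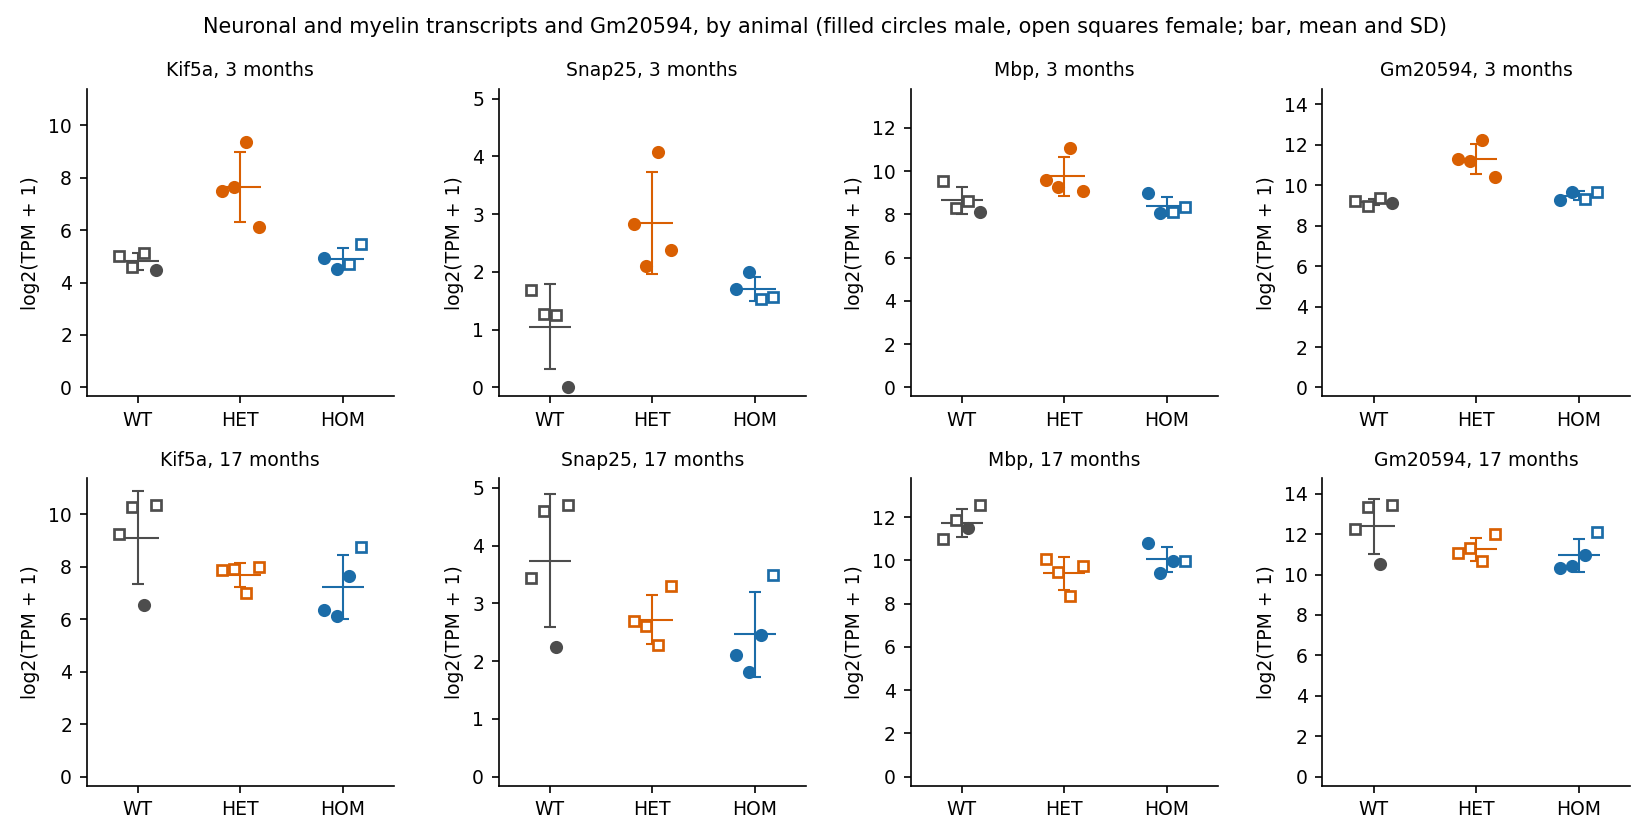
Levels of Kif5a, Snap25, Mbp and Gm20594 on the log2(TPM + 1) scale for each animal at 3 months (upper row) and 17 months (lower row), with bars for the mean and SD over 4 animals. Every heterozygote lies above every wild type for Kif5a, Snap25 and Gm20594 at 3 months, and at 17 months for none of the 4 genes.

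Glial and blood cell markers varied within the groups. Their counts are at an unadjusted p under 0.05, where 2.35% of all genes were higher and 19.2% lower. The 10 tested oligodendrocyte markers had a median of 0.43 (0.54 centred) with 2 higher, and 0.05 without HET-8304. Mbp, for myelin basic protein, stood at 741, 315, 394 and 276 TPM in wild types and at 776, 618, 2179 and 546 in heterozygotes (log2 difference 1.12, adjusted p = 0.157), with overlap. The 12 astrocyte markers had a median of 0.42 (0.53 centred) with 0 higher or lower, and 0.17 without HET-8304. The 15 neutrophil markers had a median of 0.87 (0.98 centred), with 3 higher and 1 lower, and 0.50 without HET-8309. S100a8, a calcium-binding alarmin of neutrophils, stood at 957, 621, 288 and 453 TPM in wild types and at 853, 717, 1309 and 1852 in heterozygotes. WT-8322 lay inside the heterozygous range, and HET-8309 was highest. Over 13 monocyte markers the median was 0.39 (0.50 centred), with 3 higher, 0.25 without HET-8304 and 0.21 with a term for sex. The part that these cells play in the other differences was not tested.

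Border-associated macrophages, which sit at vessels and meninges, share CD11b with microglia. Of 14 tested markers, 11 were positive and 3 were higher at an unadjusted p under 0.05, where 2.35% of all genes were, and the median was 0.25 (0.36 centred, 0.26 without HET-8304). It was 0.15 without HET-8303 and 0.11 with a term for sex. Their summed level ran from 1059 to 1200 TPM in wild types and from 1092 to 1582 in heterozygotes, with overlap. Cbr2, a carbonyl reductase, stood at 118, 112, 106 and 97.1 TPM in wild types and at 164, 169, 164 and 130 in heterozygotes. The groups were apart, the test was narrowly missed as deposited (log2 difference 0.52, SE 0.090, adjusted p = 0.0517), and after centring Cbr2 passed it (0.63, adjusted p = 0.0328). Pf4, a chemokine, stood at 141, 144, 137 and 163 TPM against 196, 230, 211 and 190, without overlap (0.50, adjusted p = 0.070). Lyve1, a hyaluronan receptor, stood at 18.5, 24, 15.6 and 17.3 TPM against 43.8, 51.6, 24.9 and 18.9, where HET-8309 lay inside the wild-type range (0.76, adjusted p = 0.130).

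Tmod1 and Manf complete the 12 higher genes. Tmod1, which caps actin filaments, stood at 4.64, 4.80, 4.57 and 6.79 TPM in wild types and at 8.58, 10.1, 8.64 and 7.76 in heterozygotes. WT-8326 was the nearest wild type, without overlap (log2 difference 0.67, adjusted p = 0.0572). Manf, a secreted protein induced by stress of the endoplasmic reticulum, stood at 65.7, 63.8, 65.9 and 72.6 TPM against 79.7, 80.0, 90.9 and 78.7 (0.29, adjusted p = 0.0637), also without overlap. The 26 genes of the unfolded protein response had a median of 0.09, with 2 higher and 1 lower, and 0.20 after centring, with 15 higher and 1 lower. Among all genes 2.35% were higher and 19.2% lower as deposited, and 8.29% higher and 4.94% lower after centring. The median was 0.04 without HET-8303 and 0.17 without HET-8309. The lower one in TPM was Ern1, the sensor kinase, at 14.4, 15.7, 16.6 and 14.7 TPM against 11.5, 12.5, 8.30 and 9.08 (-0.54, adjusted p = 0.0683). All 4 heterozygotes lay below all wild types.

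Ribosomal and respiratory genes leaned the other way from the median gene, though not in every heterozygote. Their summed levels lay above the wild-type range in HET-8304 and HET-8309, and inside it in HET-8302 and HET-8303. Small-subunit sums ran from 38888 to 41624 TPM in wild types and were 39603, 40740, 48214 and 43444 in heterozygotes. Complex I sums ran from 4016 to 4542 TPM in wild types and were 4173, 4194, 5764 and 4676 in heterozygotes. Of 32 small-subunit proteins 30 were positive, with a median of 0.11 (0.22 centred, 0.05 without HET-8304), and of 47 large-subunit proteins 45 were, with a median of 0.09 (0.20 centred, 0.04 without HET-8304). At an unadjusted p under 0.05, 6 and 8 of them were higher, where 2.35% of all genes were, and 0 and 1 lower, where 19.2% were. The higher ones numbered 20 and 28 after centring (8.29% of all genes), and 0 and 1 with a term for sex (1.39%). Rpl39 stood at 1353, 1321, 1439 and 1430 TPM in wild types and at 1527, 1660, 1564 and 1612 in heterozygotes, without overlap (log2 difference 0.20, adjusted p = 0.0809). Complex I had a median of 0.08 over 36 genes with 4 higher (0.19 centred with 12 higher, -0.02 without HET-8304). Complexes II to V had one of 0.11 over 38 genes with 9 higher (0.22 centred with 20 higher, 0.04 without HET-8304). Ndufb6, a complex I subunit, stood at 43.6, 37.5, 36.7 and 44.3 TPM against 46.7, 50.8, 58.5 and 49.4 (0.33, adjusted p = 0.0713). The heterozygotes were higher without overlap, HET-8304 highest.

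Lysosomal, autophagy and nutrient-sensing genes, the setting in which the C9orf72 complex acts, had medians near that of all genes. Of 40 lysosomal genes 11 were lower and 0 higher at an unadjusted p under 0.05, with a median of -0.09, and after centring 1 was lower and 2 higher, with a median of 0.02. Of 30 autophagy genes 12 were lower and 0 higher, with a median of -0.11, and after centring 2 were lower and 3 higher, with a median of -0.002. The 24 genes of mTORC1 and nutrient sensing had a median of -0.13 (-0.02 centred) with 6 lower. The shares of all genes were 19.2% lower and 2.35% higher as deposited, and 4.94% lower and 8.29% higher after centring. Tfeb, the master regulator of lysosomal genes, stood at 59.8, 71.0, 63.5 and 65.7 TPM in wild types and at 50.2, 49.9, 52.1 and 53.5 in heterozygotes, without overlap (log2 difference -0.33, adjusted p = 0.0572). Atg9a, which supplies membrane to autophagosomes, had a difference of -0.37 (adjusted p = 0.0859). Naglu, a lysosomal hydrolase of heparan sulfate, had one of -0.22 (adjusted p = 0.0693). Ctsd, the most abundant lysosomal member, stood at 12706, 12539, 12967 and 10731 TPM in wild types. In heterozygotes it stood at 12034, 11433, 11990 and 9685, with overlap.

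**Figure D5:**
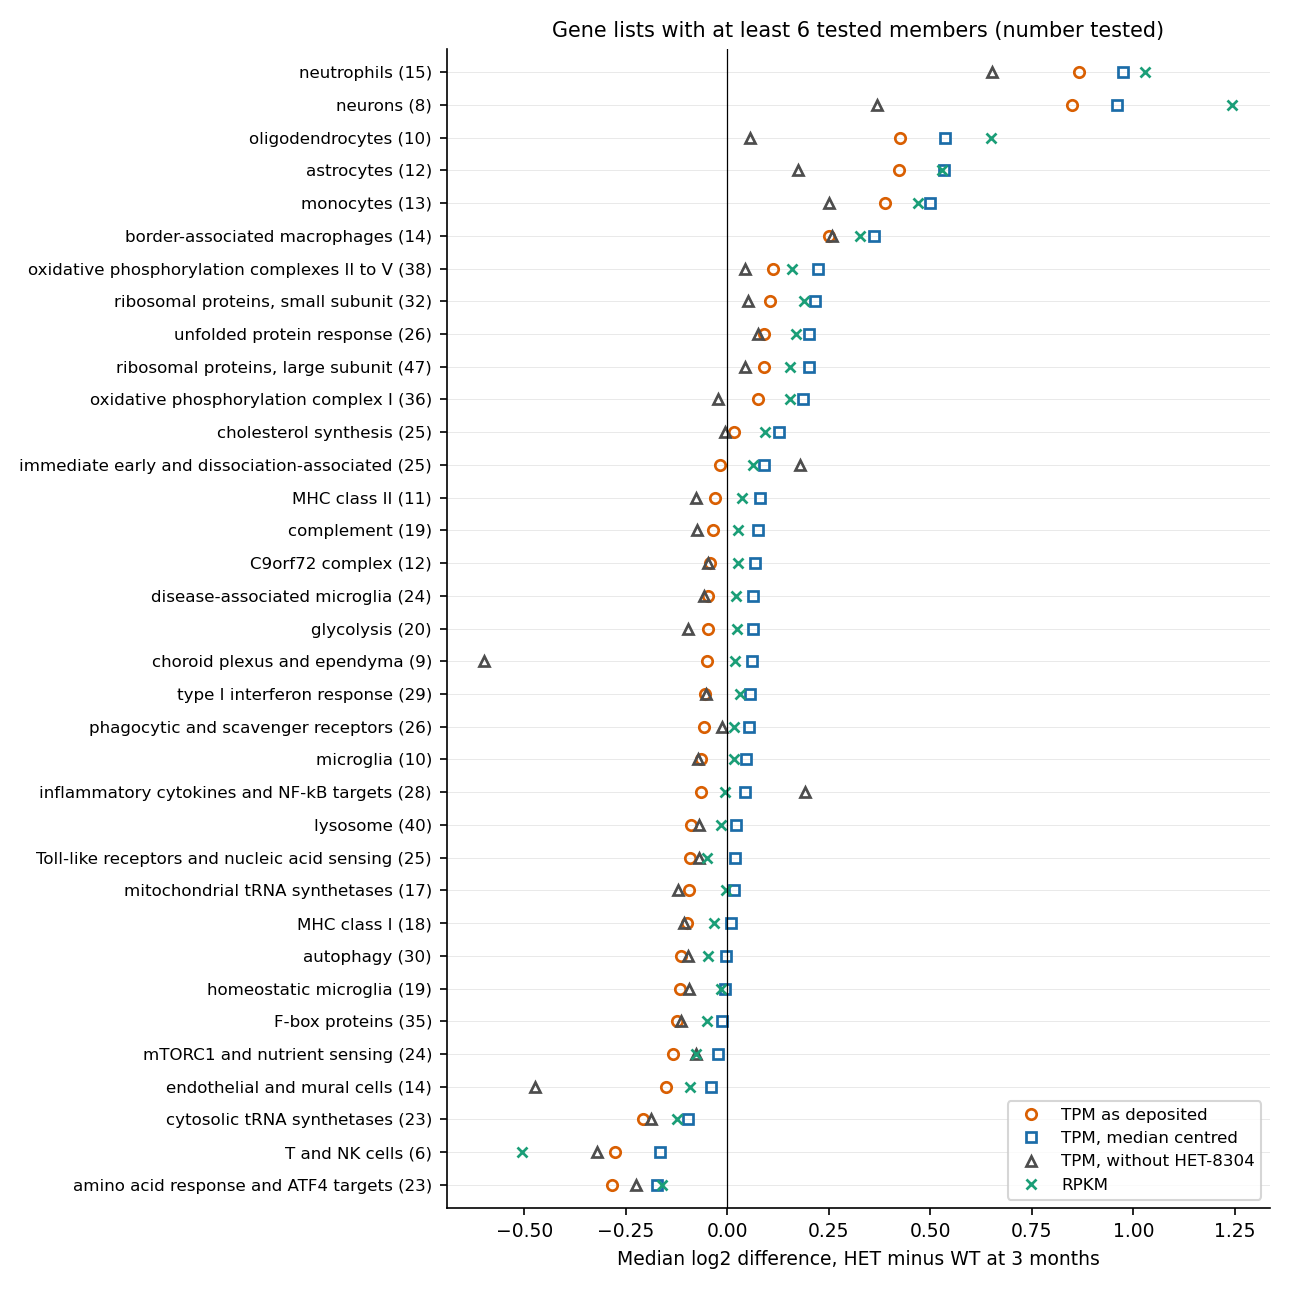
Median log2 difference of each gene list with at least 6 tested members (number in parentheses), as deposited, after median centring, without HET-8304, and in RPKM. The cytosolic synthetase and amino acid response lists lie below 0 on all 4 scales. So do T and NK cells, endothelial and mural cells, F-box proteins, autophagy, mTORC1 and nutrient sensing, and homeostatic microglia. The neuron and oligodendrocyte medians come closest to 0 without HET-8304.

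Gene programmes of microglial state were near the all-gene median. Counts here are at an unadjusted p under 0.05, where 19.2% of all genes were lower and 2.35% higher. The 19 homeostatic genes had a median of -0.12 (-0.01 centred), with 4 lower and 0 higher. Fcrls, a microglial Fc receptor-like gene, stood at 3020, 3495, 3486 and 2779 TPM in wild types and at 2620, 2562, 2462 and 2409 in heterozygotes, without overlap (-0.34, adjusted p = 0.0911). Slc2a5, a fructose transporter, had means of 388 ± 34.9 and 317 ± 7.32 TPM (-0.29, adjusted p = 0.0712). Cst3, the most abundant homeostatic member, stood at 51971, 54609, 54074 and 49416 TPM in wild types. In heterozygotes it stood at 51756, 48382, 55110 and 52171, with overlap. The 24 disease-associated genes had a median of -0.05 (0.06 centred), with 3 lower, among them the protease inhibitor Cst7 (-0.34) and the integrin Itgax (-0.32). Medians were -0.05 for 29 interferon response genes, -0.10 for 18 class I and -0.03 for 11 class II antigen presentation genes (0.06, 0.01 and 0.08 centred), with 3, 4 and 0 lower and 0 higher in each. The interferon median was 0.06 without WT-8322.

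Inflammatory and dissociation-linked genes changed sign with HET-8304. The 28 cytokine and NF-kB genes had a median of -0.07 (0.04 centred) with 3 higher and 5 lower, and 0.19 with 6 higher and 4 lower without HET-8304. Of all genes 2.35% were higher and 19.2% lower at an unadjusted p under 0.05, and 2.1% and 16% without HET-8304. Ccl12, a chemokine, stood at 180, 172, 185 and 208 TPM in wild types and at 249, 325, 212 and 226 in heterozygotes, narrowly without overlap (0.42, adjusted p = 0.0909). Nfkbie, an inhibitor of NF-kB, stood at 35.5, 37.4, 35.3 and 37.8 TPM against 28.4, 30.4, 27.6 and 31.0, also without overlap (-0.31, adjusted p = 0.0572). The 25 immediate early genes, which the dissociation itself can induce, had a median of -0.02 (0.09 centred), and 0.18 without HET-8304. Their summed level was 8407 TPM in HET-8304, against 16292 to 23931 in the other 7 animals.

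The same comparison at 17 months used other animals. Its heterozygotes are headed hemi in the RPKM table, and their reading as the heterozygous group is an assumption on which every heterozygote value of 17 months and every age difference here rests. Of these animals, 0 of 4 heterozygotes and 1 of 4 wild types were male. There 28 of 11792 genes fell (0.237%) and 0 rose, and after median centring 1 gene passed. The heterozygote effect itself differed between the ages for 79 of 11436 genes (0.691%), with 23 more positive (0.201%) and 56 more negative (0.49%) at 17 months, by an interaction of genotype and age in limma. Cytosolic synthetases had a median of 0.04 at 17 months, with 1 higher (2.75% of all genes) and 0 lower (6.49%) at an unadjusted p under 0.05, and 3 of 23 differed between the ages. Mars had a difference of 0.12 at 17 months, so that its effect differed by 0.65 (adjusted p = 0.0308). The age differences were 0.73 for Iars (adjusted p = 0.047) and 0.71 for Cars (adjusted p = 0.0243), and 0.65 for Aldh18a1 (adjusted p = 0.0308). These 4 also passed in RPKM and after centring, and with 1 animal left out or another setting they passed in 9, 9, 14 and 9 of 20. Sex and age cannot be told apart in this difference, since all heterozygotes were male at 3 months and female at 17.

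Neuronal and myelin transcripts had log2 differences of the opposite sign at 17 months. Kif5a stood at 611, 1244, 92.9 and 1295 TPM in the wild types WT-7782, WT-7783, WT-7785 and WT-7943, and at 232, 242, 128 and 251 in the heterozygotes HET-7791, HET-7794, HET-7795 and HET-7796. WT-7785, the male, was below every heterozygote and the other wild types were above. The log2 difference was -1.42 (adjusted p = 0.651), and the difference between ages was -4.26 (adjusted p = 0.0404), past the threshold in 8 of 20 settings. Mbp stood at 2055, 3725, 2906 and 5954 TPM in wild types and at 1069, 708, 322 and 852 in heterozygotes. These groups did not overlap, and Mbp fell by 2.33 on the log2 scale (adjusted p = 0.0344). The difference between ages was -3.45 (adjusted p = 0.0114), which held in 20 of 20 settings. These settings hold no term for sex, and all heterozygotes were male at 3 months and female at 17. Gm20594 stood at 4834, 10463, 1471 and 10975 TPM in wild types, in the same order of animals as Kif5a, and at 2132, 2576, 1606 and 4113 in heterozygotes. Its difference between ages was -3.24 (adjusted p = 0.0308), past the threshold in 9 of 20 settings. For Cbr2 and the targeted gene, a difference of the heterozygote effect between ages was not detected, with values of 0.07 (adjusted p = 0.938) and 0.20 (adjusted p = 0.654).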

How the data were processed

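Polyadenylated RNA of CD11b-positive brain cells was sequenced. The authors deposited a TPM table (20636 genes) and an RPKM table (18721 genes, with alignments per library) for 3 months, per the file headers. The genome build mm10, Salmon 0.8.2, TopHat2 2.1.1, DESeq2 and Partek 7.17.0918 are named in the submitters' processing notes. Which tool made which table is not given in the sources used here. Columns carry animal numbers, and genotypes come from the RPKM headers, per the file headers; those of 17 months read hemi, which was taken as heterozygous. Here, log2(TPM + 1) was fitted with limma 3.58.1 in R 4.3.3 (trend, two-sided, Benjamini-Hochberg) over all 12 animals of 3 months with a mean per genotype, for genes averaging 1 TPM or more. The difference between ages was fitted over 24 animals. RPKM was tested as log2(RPKM + 0.1) for genes with a mean of at least 0.1. Fold changes on these scales understate low genes. Values listed at 0 may be failed estimates. Sex was read from 4 Y-linked genes. The fit was tested on simulated data with independent noise per gene. That simulation held no sex imbalance, shift between libraries or outlying animal, so it does not cover these. Alternatives were other pseudocounts and filters, the RPKM table, centring, quantile normalization, a sex term, males only, array weights and leaving out each animal; 3 combined settings were added after seeing the data. Genes named are mainly those called, the 12 higher and 12 lower genes that lead both tables, and the complex. From each list, up to 3 members with the smallest p and the most abundant member were picked. Not all of these list members are printed, and those printed are mostly the ones with the smallest p. The members and the 40 gene lists were chosen with earlier results of these data known, so unadjusted counts over lists are descriptions.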

Additional observations from a re-analysis of the deposited data

Results flagged for a closer look

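The highest or lowest animal of a group of 4 stood apart from the other 3 by Dixon's gap in the following values; chance flags about 1 in 20 groups. HET-8304 was lowest for Ulk1 (16.0 TPM). It was highest for the neuronal genes Nrsn1 (34.3 TPM), Eef1a2 (28.0), Pcsk1n (53.8), Stmn3 (10.1), Rph3a (20.98) and Map2 (2.61), for the myelin genes Mbp (2179), Mobp (132) and Ermn (3.01), and for Manf (90.9) and Cox6c (419). Its score, the median over a list's genes of the log2 deviation from the wild-type mean, stood apart for neurons (2.30), oligodendrocytes (1.54) and MHC class I (-0.030). HET-8309 stood apart for Mthfd2 (21.7 TPM), Cbr2 (129.8), Zfp873 (2.98e-04) and the score of B and plasma cells (0.87, 2 genes tested). HET-8303 stood apart for Fbxo21 (1.66e-07 TPM), which was listed at 0 in the other 3. Beside 3 values at 0 any other value is flagged, so this flag carries no information. The flag of Zfp873 is alike, since the other heterozygotes were at 0 or 8.28e-09 TPM. Among wild types, WT-8326, the male, stood apart for Tmod1 (6.79 TPM) and the Y-linked score (3.25), and WT-8322 for phagocytic and scavenger receptors (-0.067).

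The heterozygote effect differed between 3 and 17 months by limma's interaction test for 15 of the named genes, as a log2 difference of differences. Among all genes it differed for 79 of 11436 (0.691%). Genes were named mostly by their 3-month difference, which enters this test, so no excess can be read from the 15. The difference between ages was 0.65 for Mars, 0.73 for Iars, 0.71 for Cars, 0.65 for Aldh18a1 and 3.31 for Fbxo21. It was -3.24 for Gm20594, -4.26 for Kif5a, -4.06 for Kif5c, -3.57 for Kif1a, -3.99 for Nrsn1, -4.05 for Rapgef4 and -3.20 for Rph3a. The myelin genes had -3.45 for Mbp, -3.24 for Mobp and -2.14 for Ermn. In RPKM the value for Fbxo21 was -0.03.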

How the results depend on the processing

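The 5 calls at 3 months became 10 with no filter on low values, 89 with a mean of at least 5 TPM and 3 with only the 8 wild-type and heterozygous animals. They became 3 with a sex term and 3507 with array weights. The males-only fit holds 1 wild type, so its calls are not given, though it counts among the settings. The RPKM table gave 0 calls in limma, with 737 genes higher and 1149 lower at an unadjusted p under 0.05, and 1 call with a pseudocount of 1. Added after seeing the data, centring without HET-8304 gave 23 and with a sex term 2. Leaving out 1 animal gave 3 (without WT-8322) to 467 (without HET-8309). The 28 calls at 17 months became 1 with centring and ranged from 0 to 232 with 1 animal left out. The 79 differences between ages became 44 with a mean of at least 5 TPM, 176 in RPKM and 125 with centring, and ranged from 19 to 332 with 1 animal left out. Alignments in heterozygotes were 107.5% to 117.5% of wild types with 1 animal left out (117.5% without WT-8326, exact permutation test, p = 0.0286).

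Signs reversed for Wdr41 (1.7e-04) and Nars (0.023) with a sex term and centring, and for Asns in males only (0.28, with 1 wild type). Atf4 reversed in RPKM (0.012), with centring (0.056), in RPKM with a pseudocount of 1 (0.012), without HET-8304 and centred (0.16), and with a sex term and centring (0.11), and it ranged from -0.16 to 0.064 with 1 animal left out (0.064 without HET-8304). Over the other gene values, 1273 kept their direction and side of the threshold, 141 passed it and 34 lost it. No paired analysis was possible because the table columns carry animal numbers, while replicate numbers stand in the labels alone. With 4 animals a group, 1 male wild type and no counts, small differences of low genes are not detectable here.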
